A study of Mus musculus with 16 samples.

Results

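RFP- MHCIIhi cells are the thymic epithelial cells with high surface MHC class II that carried no red fluorescent lineage label. They make up 4 of the 16 RNA sequencing libraries described here and were compared with the mean of the other 3 sorted populations, with 4 libraries each: labelled cells of high MHC class II (RFP+ MHCIIhi), unlabelled cells of low MHC class II (RFP- MHCIIlo) and labelled ones of low MHC class II (RFP+ MHCIIlo). All 4 populations came from C57BL6 mice with the Aire-CreERT2 and Ai14 alleles, of both sexes and 5 to 6 weeks old, which were given 2 mg tamoxifen and taken 7 days later. Tamoxifen activates the Aire-driven Cre, which switches on the Ai14 red fluorescent reporter in cells that express Aire at that time. A cell without RFP is therefore one in which the reporter did not recombine, whatever its Aire level at the time of sorting. Each library held cells from 12 pooled thymi, sorted as DAPI-, CD45- and EPCAM+. The gate used CD45, which thymocytes and other blood cells carry, but named no surface marker that separates cortical from medullary epithelium.

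Medullary thymic epithelial cells (mTEC) present tissue-restricted proteins to developing T cells, and the most mature of them carry much MHC class II and the transcriptional regulator AIRE. Dividing cells are found among mTEC before or around the onset of AIRE, and after AIRE some mTEC take on the programs of other tissues, among them tuft cells, keratinocytes and microfold cells. Cortical epithelial cells (cTEC) use a thymus-specific proteasome subunit and a serine protease to make the peptides that thymocytes are positively selected on. Double-positive thymocytes, the most abundant cells of the thymus, rearrange T cell receptor genes with RAG1 and RAG2 and can lie inside or adhere to cortical epithelial cells.

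The RFP- MHCIIhi libraries held 11596500 to 19457905 counted reads, against 11946345 to 17625838 for RFP+ MHCIIhi, 10354656 to 13802353 for RFP- MHCIIlo and 7929533 to 12928713 for RFP+ MHCIIlo. The cells sorted numbered 114000 to 150900 in RFP- MHCIIhi and 19400 to 20500 in RFP+ MHCIIlo, whose libraries were also the shallowest on average. Levels are given as CPM, a gene's reads as a share of the library's total after TMM scaling. They do not account for gene length and are compared between populations, not between genes. The labelled MHC class II level was checked on its genes. The MHC class II chain gene H2-Aa had 4703 ± 157 CPM in the RFP- MHCIIhi pools, against 5381 ± 396 in the RFP+ MHCIIhi pools, 1319.7 ± 291 in the RFP- MHCIIlo pools and 961 ± 187 in the RFP+ MHCIIlo pools (SD, n = 4 each). All 10 MHC class II list genes were higher in RFP- MHCIIhi than in the mean of the other 3, beside 34.8% of all tested genes. Their median log2 fold change was 1.16, and that mean includes both populations sorted for low MHC class II. Against RFP+ MHCIIhi alone their median was -0.27. Aire (ENSMUSG00000000731, chr10:78030022-78043610, minus strand; coordinates are GRCm38 with GENCODE M21 genes) had 950.1, 1041, 1007 and 916 CPM in the RFP- MHCIIhi pools, against 543, 622, 588 and 594 in the RFP+ MHCIIhi pools. Aire had 16.3, 23.8, 42.6 and 69.0 CPM in the RFP- MHCIIlo pools and 13.9, 68.0, 54.4 and 66.9 in the RFP+ MHCIIlo pools. The 4 RFP- MHCIIhi libraries lay above all 12 others in Aire, but its log2 fold change over RFP+ MHCIIhi, 0.74 ± 0.31 (SE), did not pass with an adjusted p of 0.0571 in edgeR's quasi-likelihood test. Over the alternative settings that p ran between 1.09e-07 and 0.157, and it passed with RLE scaling (0.047), no filter (1.09e-07), limma-voom (0.00642) and RFP+ MHCIIlo left out (0.00827). It also passed without RFP- MHCIIlo replicate 1 (0.0317) or 4 (0.0279) and without RFP+ MHCIIlo replicate 1 (0.00815) or 4 (0.0449).

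Against the mean of the other 3 populations, 6832 of 19617 tested genes (34.8%) were higher and 6427 (32.8%) were lower in RFP- MHCIIhi, at an adjusted p under 0.05 (edgeR, Benjamini-Hochberg). A gene is called peaking here when it was higher, and lowest when it was lower, in each of the 3 single comparisons. In the single comparisons 21.2% of tested genes were higher and 23.8% lower than in RFP+ MHCIIhi, 35.6% and 33.5% than in RFP- MHCIIlo, and 34.9% and 33.6% than in RFP+ MHCIIlo. By the rule over all 3, 2263 genes (11.5%) peaked in RFP- MHCIIhi and 2434 (12.4%) were lowest there. With a log2 difference beyond 1 in each comparison, 675 genes (3.44%) peaked and 684 (3.49%) were lowest. Of those 675, the next highest population was RFP+ MHCIIhi for 509, RFP- MHCIIlo for 141 and RFP+ MHCIIlo for 25. The 12 protein-coding genes with the largest smallest difference from the other 3 populations, at 20 CPM or more and with no library overlap, were Psmb11, Rag1, Prss16, Dntt, Cd8b1, Ube2c, Aspm, Top2a, Pbk, Hmmr, Nusap1 and Cd8a, out of 997 candidates. Psmb11 and Prss16 are cTEC genes, Rag1, Dntt, Cd8b1 and Cd8a are thymocyte genes, and the other 6 act in cell division. The 12 lowest, out of 1093 candidates, were Car8, Gnat3, Bmx, Alox5, Sh2d7, Cyp2f2, Gnb3, Sh2d6, Plcb2, Mctp1, Trpm5 and Slitrk6, and 6 of them, Gnat3, Bmx, Alox5, Sh2d6, Plcb2 and Trpm5, stood in the tuft cell list. No overlap between RFP- MHCIIhi and other libraries was a condition for both sets of 12. For these genes it is therefore no separate result where it is stated below. Over all tested genes, the RFP- MHCIIhi libraries lay all above the others in 12.7% and all below them in 11.2%. In bulk RNA, more cells of a type and more RNA per cell of that type cannot be told apart.

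**Figure D1:**
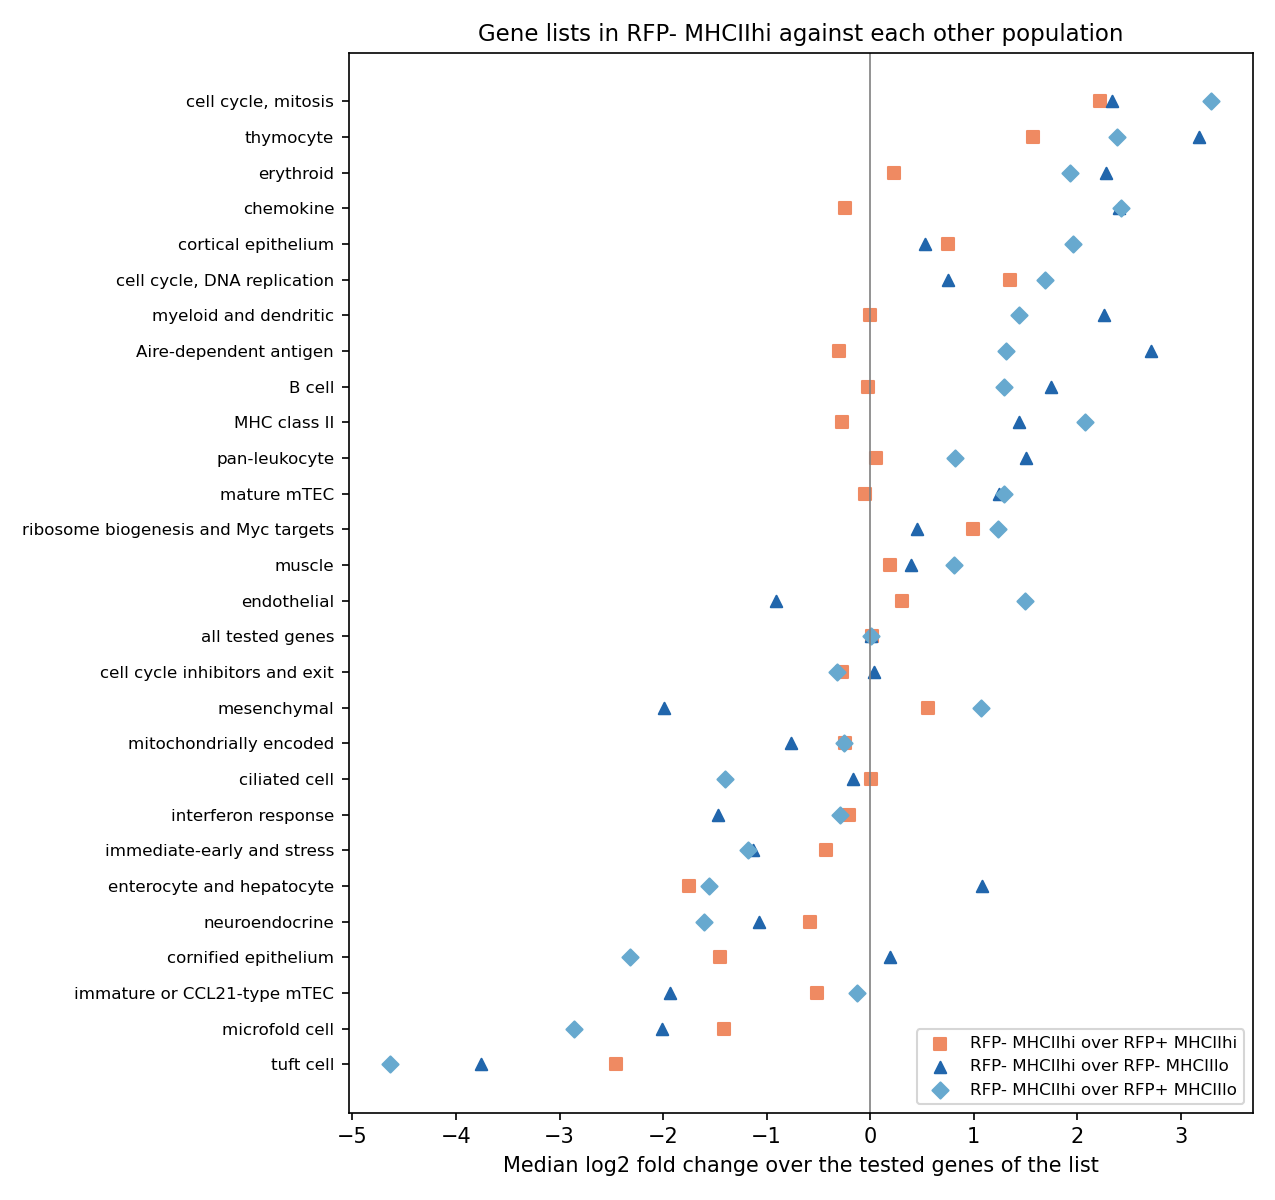
Median log2 fold change (x axis) over the tested genes of each list (rows), for RFP- MHCIIhi over each of the other 3 populations (squares, triangles and diamonds); the row for all tested genes lies near 0. The mitosis and thymocyte lists lie right of 0 in each comparison, with mitosis medians of 2.22, 2.33 and 3.30, while the tuft cell list lies furthest left with medians of -2.46, -3.76 and -4.64.

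Genes of mitosis were higher in RFP- MHCIIhi than in each other population without exception in the list. All 40 tested members peaked, beside 11.5% of all tested genes, with a median log2 fold change of 2.57 over the mean of the other 3 and a median of 0.00 over all genes. The medians were 2.22 over RFP+ MHCIIhi, 2.33 over RFP- MHCIIlo and 3.30 over RFP+ MHCIIlo. Top2a (ENSMUSG00000020914, chr11:98992943-99024189, minus strand), the topoisomerase that untangles chromosomes before division, had 315, 344, 328 and 334 CPM in the RFP- MHCIIhi pools, against 50.3, 54.4, 54.7 and 54.7 in the RFP+ MHCIIhi pools. Top2a had 30.7, 40.7, 66.8 and 68.4 CPM in the RFP- MHCIIlo pools and 12.6, 22.7, 33.8 and 19.7 in the RFP+ MHCIIlo pools. No library of another population reached the lowest RFP- MHCIIhi library, as the rule for the 12 highest required. Its log2 fold change was 2.62 ± 0.20 over RFP+ MHCIIhi, 2.67 ± 0.21 over RFP- MHCIIlo and 3.90 ± 0.22 over RFP+ MHCIIlo (SE), with a largest adjusted p of 2.55e-10. Mki67, whose product Ki-67 coats mitotic chromosomes, had 464, 497, 498 and 459 CPM in the RFP- MHCIIhi pools, against 86.8, 87.7, 88.1 and 89.4 in the RFP+ MHCIIhi pools. Mki67 had 72.4, 88.9, 158 and 159.6 CPM in the RFP- MHCIIlo pools and 10.5, 25.8, 43.6 and 34.5 in the RFP+ MHCIIlo pools. In both genes RFP- MHCIIlo libraries 1 and 2 lay below libraries 3 and 4, and RFP+ MHCIIlo library 1 was the lowest of all 16.

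The kinase gene Cdk1, which drives entry into mitosis, averaged 62.7 ± 6.68 CPM in the RFP- MHCIIhi pools, against 12.8 ± 1.44 in the RFP+ MHCIIhi pools, 8.89 ± 3.71 in the RFP- MHCIIlo pools and 4.09 ± 1.27 in the RFP+ MHCIIlo pools (SD, n = 4 each). Its cyclin partner gene Ccnb1 averaged 13.0 ± 1.54 CPM in the RFP- MHCIIhi pools, against 2.43 ± 0.563 in the RFP+ MHCIIhi pools, 2.00 ± 0.758 in the RFP- MHCIIlo pools and 1.08 ± 0.564 in the RFP+ MHCIIlo pools. Birc5, which encodes a subunit of the chromosomal passenger complex, had a log2 fold change of 2.81 ± 0.23 over the mean of the other 3 with an adjusted p of 1.41e-10. Ube2c, the ubiquitin-conjugating enzyme of the anaphase-promoting complex, had the highest value of the list at 3.42 ± 0.17. The spindle genes Hmmr and Nusap1 stood at 3.12 and 3.02, and outside the list the spindle gene Aspm and the mitotic kinase gene Pbk, both among the 12 highest, at 3.18 and 3.42. The smallest difference from RFP+ MHCIIhi in the list was that of Ttk, a spindle checkpoint kinase gene, at 0.78 ± 0.21, followed by Kif4, a chromosome-associated kinesin gene, at 1.17 ± 0.14.

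Genes of DNA replication showed a smaller difference with another order of populations. Of 37 tested members 36 were higher than the mean of the other 3, 30 peaked, and Gins3 did not pass. Over all tested genes 34.8% were higher and 11.5% peaked. The median log2 fold changes were 1.35 over RFP+ MHCIIhi, 0.75 over RFP- MHCIIlo and 1.69 over RFP+ MHCIIlo, so that RFP- MHCIIlo came closest. Mcm5 (ENSMUSG00000005410, chr8:75109569-75128439, plus strand), a subunit of the replicative helicase, had 24.3, 24.7, 27.2 and 27.8 CPM in the RFP- MHCIIhi pools, against 7.72, 7.58, 8.45 and 8.84 in the RFP+ MHCIIhi pools. Mcm5 had 10.1, 11.5, 13.0 and 14.2 CPM in the RFP- MHCIIlo pools and 1.84, 4.14, 4.36 and 4.64 in the RFP+ MHCIIlo pools. No library overlapped between RFP- MHCIIhi and the others, and all RFP- MHCIIlo libraries lay above all RFP+ MHCIIhi libraries. Pola1, the polymerase alpha catalytic subunit gene, and Dnmt1, the maintenance methyltransferase gene, did not pass over RFP- MHCIIlo, with log2 fold changes of 0.28 ± 0.16 and 0.11 ± 0.09 and adjusted p of 0.136 and 0.247. The ribonucleotide reductase subunit gene Rrm2 averaged 39.1 ± 4.56 CPM in the RFP- MHCIIhi pools, against 7.14 ± 0.879 in the RFP+ MHCIIhi pools, 7.28 ± 2.30 in the RFP- MHCIIlo pools and 4.24 ± 1.15 in the RFP+ MHCIIlo pools. The methylation maintenance factor gene Uhrf1 stood at 2.33 ± 0.14 over the mean of the other 3, and the sliding clamp gene Pcna at 0.78 ± 0.08.

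The list of cyclin-dependent kinase inhibitors and exit genes also held the G1 cyclin genes Ccnd1, Ccnd2 and Ccnd3. Of its 13 tested members 5 were higher, Ccnd1 and Ccnd2 among them, and 6 lower than the mean of the other 3, with a median of -0.11. The background was 34.8% higher and 32.8% lower among all tested genes. Cdkn1a, which encodes the inhibitor p21, had 146, 117, 123 and 118 CPM in the RFP- MHCIIhi pools, against 344, 311, 336 and 298 in the RFP+ MHCIIhi pools. Cdkn1a had 216, 188, 163 and 152 CPM in the RFP- MHCIIlo pools and 502, 444, 394 and 409 in the RFP+ MHCIIlo pools. The 4 RFP- MHCIIhi libraries were the lowest of the 16. Cdkn1c, the p57 gene, Btg1 and Btg2, which encode antiproliferative factors, were also lowest in RFP- MHCIIhi, with log2 fold changes over the mean of -1.76, -0.68 and -1.41. Peaking members were Cdkn2c, Cdkn2d and Ccnd2, the first and second inhibitor genes and the third a G1 cyclin gene, at 1.17, 0.70 and 1.71. Ccnd1 was highest in RFP- MHCIIlo, and its value over the mean of the other 3 was 0.29 ± 0.09 (adjusted p = 0.00691); without RFP- MHCIIhi replicate 1 the adjusted p was 0.0767, and with RFP+ MHCIIlo left out the value turned to -0.04 (adjusted p = 0.671). Ribosome biogenesis and Myc target genes were higher in 18 of 18 and peaked in 12, beside 34.8% and 11.5% of all tested genes, with a median of 0.90. The Myc gene itself stood at 0.76 ± 0.07, the nucleolin gene Ncl at 1.15 ± 0.08 and the spermidine synthase gene Srm at 1.14 ± 0.10.

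Promoters of cell cycle genes are shown for short motifs, which were counted over the windows of the mitosis and replication lists. Whether the motifs relate to the differences in level was not tested. In RefSeq promoter windows of GRCm38.p6, 250 bases before to 50 after a gene's start, both strands were searched for TTTGAA, the core of the cell cycle genes homology region (CHR), for CCAAT, the NF-Y box, and for TTCCCGC or TTGGCGC, E2F-type sites. CHR letters stood in 27 of 36 windows of the mitosis list (75.0%), against 5 of 39 windows of the replication list (12.8%) and 17.9% of all 32817 windows. CCAAT stood in 72.2% of mitosis windows and 51.3% of replication windows, against 37.4% of all windows. E2F-type letters were the reverse, in 19.4% of mitosis windows and 48.7% of replication windows, against 6.8% of all windows. The mitosis and replication windows were also richer in G and C, with medians of 59.0% and 63.0% against 52.7% over all windows, so the shares are not matched for base composition. The 250 bases before the start are printed 5′ to 3′ on the gene's strand, with CHR and CCAAT letters in capitals for Top2a (chr11:99024190-99024439, minus strand), Cdk1 (chr10:69352913-69353162, minus strand) and Ube2c (chr2:164769679-164769928, plus strand), on either strand, and with E2F-type letters in capitals for Mcm5 (chr8:75109259-75109508, plus strand).
Top2a: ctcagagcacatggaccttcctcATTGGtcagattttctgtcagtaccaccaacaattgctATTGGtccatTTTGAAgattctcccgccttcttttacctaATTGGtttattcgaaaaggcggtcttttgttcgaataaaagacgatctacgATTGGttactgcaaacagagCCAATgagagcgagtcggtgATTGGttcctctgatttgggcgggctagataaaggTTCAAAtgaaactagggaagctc
Cdk1: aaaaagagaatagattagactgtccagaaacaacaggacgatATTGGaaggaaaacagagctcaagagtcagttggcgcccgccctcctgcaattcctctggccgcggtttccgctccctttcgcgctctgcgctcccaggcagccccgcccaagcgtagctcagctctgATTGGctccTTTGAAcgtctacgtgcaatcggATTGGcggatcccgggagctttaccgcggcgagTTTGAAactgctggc
Ube2c: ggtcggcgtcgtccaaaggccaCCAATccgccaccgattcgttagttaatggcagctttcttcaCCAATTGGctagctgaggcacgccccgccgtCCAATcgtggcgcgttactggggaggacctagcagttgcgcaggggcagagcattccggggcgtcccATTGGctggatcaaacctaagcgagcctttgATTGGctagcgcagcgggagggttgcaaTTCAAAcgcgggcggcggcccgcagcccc
Mcm5: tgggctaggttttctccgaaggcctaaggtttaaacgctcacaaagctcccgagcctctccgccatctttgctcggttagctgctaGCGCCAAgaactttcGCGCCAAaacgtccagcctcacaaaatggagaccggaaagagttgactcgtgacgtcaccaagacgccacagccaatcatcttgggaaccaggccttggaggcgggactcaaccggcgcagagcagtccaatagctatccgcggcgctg
Top2a held 2 CHR and 6 CCAAT matches, Cdk1 2 and 3, and Ube2c 1 and 6, while Mcm5 held 2 E2F-type matches and no CHR match. Cdk1 also held 1 E2F-type match and Mcm5 2 CCAAT matches, which are left in lower case. RefSeq starts can differ from the GENCODE gene ends given elsewhere. A match is a run of letters and not a measured binding site.

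Cortical epithelial genes split into groups by which other population came closest. Of 19 tested list members 13 were higher and 5 lower than the mean of the other 3, 9 peaked and 1 was lowest, with medians of 0.76 over RFP+ MHCIIhi, 0.53 over RFP- MHCIIlo and 1.96 over RFP+ MHCIIlo. Over all tested genes 34.8% were higher, 32.8% lower, 11.5% peaking and 12.4% lowest. Psmb11 (ENSMUSG00000072423, chr14:54621433-54629556, plus strand), the thymoproteasome subunit restricted to cTEC, had 210.2, 148, 147 and 272 CPM in the RFP- MHCIIhi pools, against 15.7, 19.0, 15.8 and 39.8 in the RFP+ MHCIIhi pools. Psmb11 had 17.0, 15.5, 14.9 and 26.3 CPM in the RFP- MHCIIlo pools and 3.03, 7.07, 10.8 and 6.80 in the RFP+ MHCIIlo pools. Its RFP- MHCIIhi libraries did not overlap any other, as the rule for the highest genes required, and library 4 was the highest in 3 of the 4 populations. The log2 fold change was 3.11 ± 0.27 over RFP+ MHCIIhi, 3.39 ± 0.28 over RFP- MHCIIlo and 4.81 ± 0.32 over RFP+ MHCIIlo, with a largest adjusted p of 1.9e-09. Prss16 (ENSMUSG00000006179, chr13:22002173-22009742, minus strand), the thymus-specific serine protease gene, had 314, 239, 299 and 438 CPM in the RFP- MHCIIhi pools, against 33.2, 36.7, 27.3 and 79.9 in the RFP+ MHCIIhi pools. Prss16 had 24.9, 35.1, 28.5 and 51.9 CPM in the RFP- MHCIIlo pools and 5.19, 15.2, 25.3 and 16 in the RFP+ MHCIIlo pools. The same rule required no overlap for Prss16, and library 4 was again the highest in 3 populations. Enpep, which encodes the Ly51 antigen used to sort cTEC, also peaked, with log2 fold changes of 1.43, 1.32 and 1.76 over the 3 populations in the same order.

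Some cTEC genes were shared with RFP+ MHCIIhi. The chemokine gene Ccl25, which attracts thymocyte precursors, had 916, 769, 810.0 and 1194 CPM in the RFP- MHCIIhi pools, against 447, 454, 532 and 620.4 in the RFP+ MHCIIhi pools. Ccl25 had 55.8, 69.9, 65.1 and 69.5 CPM in the RFP- MHCIIlo pools and 64.9, 117, 112 and 91.5 in the RFP+ MHCIIlo pools. It passed over RFP+ MHCIIhi by 0.84 ± 0.15 and over RFP- MHCIIlo by 3.82 ± 0.17. Tbata, a thymus and brain gene of the list, averaged 1034 ± 145 CPM in the RFP- MHCIIhi pools, against 469 ± 42.7 in the RFP+ MHCIIhi pools, 82.2 ± 11.7 in the RFP- MHCIIlo pools and 89.9 ± 19.8 in the RFP+ MHCIIlo pools. Ly75, the DEC-205 gene, and Foxn1, the master regulator of thymic epithelium, had log2 fold changes of 0.76 and 0.46 over RFP+ MHCIIhi, and 1.61 and 1.39 over RFP- MHCIIlo. The Notch ligand gene Dll4 did not peak, since its value over RFP+ MHCIIhi was -0.37 ± 0.17 with an adjusted p of 0.0801; over the alternatives the adjusted p ran between 0.0154 and 0.217, and it passed with no filter (0.0154), limma-voom (0.0185) and RFP+ MHCIIlo left out (0.0198), without RFP- MHCIIhi replicate 4 (0.0425) and without RFP+ MHCIIlo replicate 1 (0.0307).

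Other genes of the cTEC list were shared with RFP- MHCIIlo, whose pools also held the largest summed CPM of the mesenchymal gene list. The mesenchymal sum was 1495 ± 327 CPM in the RFP- MHCIIlo pools and 432 ± 19.5 in the RFP- MHCIIhi pools (SD, n = 4 each). It was 383 ± 13.9 in the RFP+ MHCIIhi pools and 524 ± 89.6 in the RFP+ MHCIIlo pools. The part of mesenchymal RNA in the values below was not tested. Cxcl12, a chemokine gene that retains precursors in the cortex, had 159, 140.4, 153 and 243 CPM in the RFP- MHCIIhi pools, against 16.1, 18.5, 17.0 and 32.3 in the RFP+ MHCIIhi pools. Cxcl12 had 92.6, 101, 85.7 and 124 CPM in the RFP- MHCIIlo pools and 6.16, 14.0, 9.24 and 18.1 in the RFP+ MHCIIlo pools. The lowest RFP- MHCIIhi library lay above the highest RFP- MHCIIlo library, and both populations lay above all RFP+ libraries. The lysosomal protease gene Ctsl stood 2.58 above RFP+ MHCIIhi and 0.53 above RFP- MHCIIlo, and the transcription factor gene Pax1 1.69 and 0.05, the last of which did not pass (adjusted p = 0.719). A further 5 were highest in RFP- MHCIIlo itself, namely Igfbp5, an insulin-like growth factor binding protein gene, at -3.89, the cytokine gene Il7 at -1.51, the atypical chemokine receptor gene Ackr4 at -2.60, the transcription factor gene Scx at -4.05 and the growth factor gene Bmp4 at -2.68, all log2 fold changes of RFP- MHCIIhi over RFP- MHCIIlo that passed the test.

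**Figure D2:**
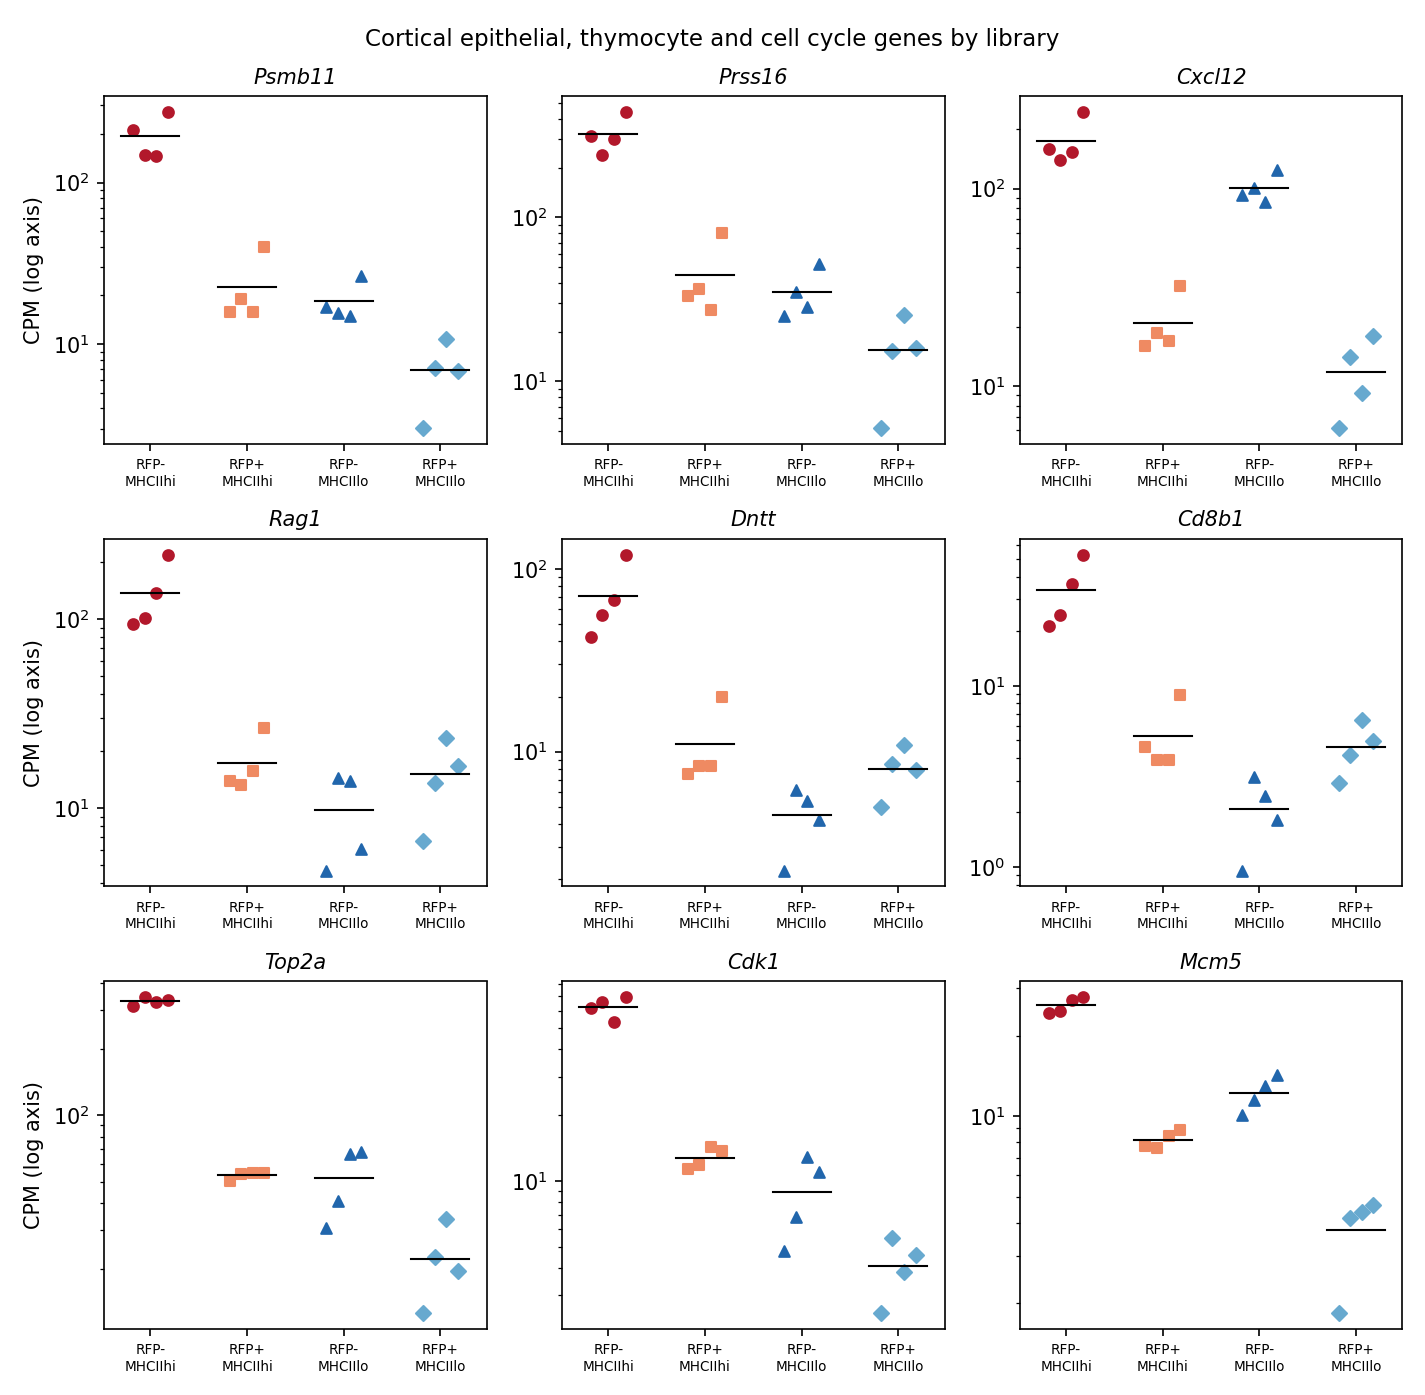
CPM on log axes (y) of cTEC, thymocyte and cell cycle genes in each library, by population (x); each point is a library, in replicate order from left to right, and each line is the mean of 4. RFP- MHCIIhi libraries lie above all others in each panel, and Cxcl12 shows RFP- MHCIIlo in second place while Psmb11 shows RFP+ MHCIIhi and RFP- MHCIIlo side by side.

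The promoter of Psmb11 is shown for the letters GACGC, the core recognised by FOXN1, on either strand in capitals, in the 250 bases before its start (chr14:54625060-54625309, plus strand).
Psmb11: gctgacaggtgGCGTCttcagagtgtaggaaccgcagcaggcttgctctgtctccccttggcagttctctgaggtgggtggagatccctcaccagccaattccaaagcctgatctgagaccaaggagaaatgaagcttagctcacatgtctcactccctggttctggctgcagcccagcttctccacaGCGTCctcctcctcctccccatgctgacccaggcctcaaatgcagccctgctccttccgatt
It held 2 matches. The same letters stood in 31.6% of 19 windows of the cTEC list, 12.8% of 39 windows of the thymocyte list and 61.1% of the mitosis windows, against 27.2% of all windows.

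Thymocyte genes were higher in RFP- MHCIIhi almost throughout the list. Of 33 tested members 32 were higher than the mean of the other 3 and 27 peaked, with medians of 1.57 over RFP+ MHCIIhi, 3.18 over RFP- MHCIIlo and 2.38 over RFP+ MHCIIlo. Over all tested genes 34.8% were higher and 11.5% peaked. Rag1 (ENSMUSG00000061311, chr2:101638282-101649501, minus strand), one of the recombinase genes that cut receptor gene segments, had 93.5, 101, 137 and 218 CPM in the RFP- MHCIIhi pools, against 13.9, 13.2, 15.7 and 26.5 in the RFP+ MHCIIhi pools. Rag1 had 4.68, 14.5, 13.9 and 6.11 CPM in the RFP- MHCIIlo pools and 6.70, 13.7, 23.4 and 16.7 in the RFP+ MHCIIlo pools. All 4 RFP- MHCIIhi libraries lay above the other 12, as the rule for the highest genes required, and library 4 held more than the others of its population. Its log2 fold change was 2.99 ± 0.31 over RFP+ MHCIIhi, 3.79 ± 0.34 over RFP- MHCIIlo and 3.18 ± 0.32 over RFP+ MHCIIlo, with a largest adjusted p of 2.93e-08. Dntt, which encodes the terminal transferase that adds bases at receptor junctions, had 42.4, 55.6, 67.6 and 119 CPM in the RFP- MHCIIhi pools, against 7.56, 8.28, 8.34 and 20.0 in the RFP+ MHCIIhi pools. Dntt had 2.23, 6.19, 5.37 and 4.21 CPM in the RFP- MHCIIlo pools and 4.97, 8.53, 10.8 and 7.96 in the RFP+ MHCIIlo pools. Its RFP- MHCIIhi libraries lay above the other 12, again by that rule. Cd8b1, a chain of the CD8 coreceptor, had 21.2, 24.4, 36.3 and 52.7 CPM in the RFP- MHCIIhi pools, against 4.60, 3.91, 3.90 and 8.84 in the RFP+ MHCIIhi pools. Cd8b1 had 0.957, 3.14, 2.47 and 1.81 CPM in the RFP- MHCIIlo pools and 2.92, 4.14, 6.44 and 4.98 in the RFP+ MHCIIlo pools. In Dntt and Cd8b1, as in Rag1, the highest value of RFP- MHCIIhi and of RFP+ MHCIIhi was in library 4.

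Other members filled out the same list. Rag2 stood 2.92 ± 0.28 above the mean of the other 3, Cd8a 3.22 ± 0.22, the CD3 chain gene Cd3e 2.63 ± 0.24 and the pre-T cell receptor chain gene Ptcra 2.77 ± 0.38. Ptcra was low, at 2.46 ± 0.644 CPM in the RFP- MHCIIhi pools, against 0.822 ± 0.329 in the RFP+ MHCIIhi pools, 0.15 ± 0.177 in the RFP- MHCIIlo pools and 0.344 ± 0.276 in the RFP+ MHCIIlo pools. Cd2, Cd5 and Cd28, genes of T cell surface receptors, were higher than the mean but did not peak. Cd2 and Cd5 missed over RFP+ MHCIIhi with adjusted p of 0.192 and 0.0675, and Cd28 over RFP- MHCIIlo with 0.0702. Endou missed over RFP+ MHCIIlo, and Tcf12 was lower than in RFP- MHCIIlo. T cell receptor gene segments were higher in 12 of 13 tested and peaked in 9, with a median log2 fold change of 2.31, whereas antibody gene segments were higher in 4 of 32 and peaked in none, with a median of 0.12. Over all tested genes 34.8% were higher and 11.5% peaked. With both MHCIIhi libraries numbered 4 left out, 25 thymocyte genes and 8 cTEC genes peaked in the refit.

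Markers of other blood cells were counted in the same way, beside 34.8% higher and 11.5% peaking over all tested genes. The pan-leukocyte list had 5 peaking genes of 15 and a median of 0.05 over RFP+ MHCIIhi. Ptprc, the CD45 gene that the gate selected against, averaged 60.0 ± 20.6 CPM in the RFP- MHCIIhi pools, against 21.9 ± 3.26 in the RFP+ MHCIIhi pools, 21.1 ± 2.60 in the RFP- MHCIIlo pools and 36.4 ± 6.00 in the RFP+ MHCIIlo pools, and peaked with 1.45 ± 0.17 over RFP+ MHCIIhi, as did Coro1a, an actin regulator gene of blood cells, with 0.83 ± 0.23; both also stand in the thymocyte list. No B cell gene of 10 peaked, and the median over RFP+ MHCIIhi was -0.02, with the receptor component gene Cd79a at 1.79 ± 0.289 CPM in the RFP- MHCIIhi pools, against 1.31 ± 0.436 in the RFP+ MHCIIhi pools, 0.745 ± 0.318 in the RFP- MHCIIlo pools and 0.580 ± 0.302 in the RFP+ MHCIIlo pools. Of 17 myeloid and dendritic genes 13 were higher than the mean of the other 3, but 1, Adgre1, peaked, and the median over RFP+ MHCIIhi was 0.00. In that list the lysozyme gene Lyz2 stood at 1.07 over the mean and -0.50 over RFP+ MHCIIhi, the complement gene C1qa at 1.43 and 0.46, and the CD11c gene Itgax at 1.02 and 0.46. The Itgax call over the mean was lost without RFP- MHCIIhi replicate 3 (adjusted p = 0.0628).

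Of 6 erythroid genes 5 were higher and 1, Hbb-bt, peaked, beside 34.8% and 11.5% of all tested genes. The globin gene Hbb-bs averaged 1.78 ± 0.194 CPM in the RFP- MHCIIhi pools, against 1.72 ± 0.526 in the RFP+ MHCIIhi pools, 1.95 ± 1.52 in the RFP- MHCIIlo pools and 0.529 ± 0.438 in the RFP+ MHCIIlo pools, and was not called. Hbb-bs was called with limma-voom (adjusted p = 0.0466) and without RFP+ MHCIIlo libraries 1 and 4 (0.0256). Of 10 endothelial genes 3 were higher, near the 34.8% of all tested genes, and none peaked: Pecam1 stood at 0.61 ± 0.14 and Cdh5 at 0.91 ± 0.24 over the mean of the other 3, while Cdh5 had a log2 fold change of -1.32 over RFP- MHCIIlo. With RFP+ MHCIIlo left out the Pecam1 difference ended (adjusted p = 0.661) and that of Cdh5 turned to -0.12. Of 15 mesenchymal genes 4 were higher and 6 lower, beside 34.8% and 32.8% of all tested genes, and 1 peaked, with a median of -1.99 over RFP- MHCIIlo. The extracellular matrix genes Dcn and Prelp stood at -2.90 and -3.05 over RFP- MHCIIlo, and the collagen gene Col1a1 at 0.61 ± 0.24 over the mean of the other 3 (adjusted p = 0.0324), a call lost in DESeq2 (adjusted p = 0.0905), without RFP+ MHCIIlo (0.416) and without RFP- MHCIIhi replicate 1 (0.0526), 2 (0.0654) or 3 (0.0752). The mesenchymal member that peaked was Thy1, which thymocytes also express, at 112 ± 27.8 CPM in the RFP- MHCIIhi pools, against 25.2 ± 5.18 in the RFP+ MHCIIhi pools, 8.5 ± 3.1 in the RFP- MHCIIlo pools and 10.6 ± 4.57 in the RFP+ MHCIIlo pools.

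The cycling, cTEC and thymocyte genes were compared by the order of the other populations, by ratios between genes and by their spread between pools. The order separated them in part. Psmb11 lay 3.11, 3.39 and 4.81 above RFP+ MHCIIhi, RFP- MHCIIlo and RFP+ MHCIIlo on the log2 scale, and Top2a 2.62, 2.67 and 3.90. Both lay furthest above RFP+ MHCIIlo, so that these values did not set the leading cTEC gene apart from mitosis. The order of RFP+ MHCIIhi and RFP- MHCIIlo differed among mitosis genes. The list medians were 2.22 and 2.33, while Mki67 lay 2.45 and 2.00 above them. The thymocyte list lay furthest above RFP- MHCIIlo by its median. Ratios of CPM between a pair of genes within a library carry both genes' lengths and are compared only between populations. The ratio of Prss16 to Psmb11 was 1.69 ± 0.239 in the RFP- MHCIIhi pools, 1.95 ± 0.161 in the RFP+ MHCIIhi pools, 1.90 ± 0.331 in the RFP- MHCIIlo pools and 2.14 ± 0.300 in the RFP+ MHCIIlo pools (SD, n = 4 each), and the largest of the 4 means was 1.27 times the smallest. The ratio of Ccl25 to Psmb11, in contrast, was 4.87 ± 0.588 in the RFP- MHCIIhi pools, 25.4 ± 7.65 in the RFP+ MHCIIhi pools, 3.70 ± 0.890 in the RFP- MHCIIlo pools and 15.5 ± 4.74 in the RFP+ MHCIIlo pools. That of Cxcl12 to Psmb11 was 0.911 ± 0.119 in the RFP- MHCIIhi pools, 0.971 ± 0.112 in the RFP+ MHCIIhi pools, 5.60 ± 0.734 in the RFP- MHCIIlo pools and 1.88 ± 0.751 in the RFP+ MHCIIlo pools. Relative to Psmb11, Ccl25 was thus higher in both RFP+ populations than in the RFP- ones, and Cxcl12 was highest in RFP- MHCIIlo.

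Thymocyte genes were set against Rag1. The ratio of Dntt to Rag1 was 0.511 ± 0.0455 in the RFP- MHCIIhi pools, 0.614 ± 0.104 in the RFP+ MHCIIhi pools, 0.495 ± 0.135 in the RFP- MHCIIlo pools and 0.577 ± 0.132 in the RFP+ MHCIIlo pools, and the largest mean was 1.24 times the smallest. For Cd8b1 to Rag1 and Cd8a to Rag1 the largest mean was 1.47 and 1.49 times the smallest. The ratio of Tcf7, a T cell transcription factor gene, to Rag1 was 1.62 ± 0.219 in the RFP- MHCIIhi pools, 5.56 ± 1.06 in the RFP+ MHCIIhi pools, 1.81 ± 0.554 in the RFP- MHCIIlo pools and 1.94 ± 0.349 in the RFP+ MHCIIlo pools, highest in RFP+ MHCIIhi. For Cd4 to Rag1 the ratio was 0.484 ± 0.0778 in the RFP- MHCIIhi pools, 1.26 ± 0.243 in the RFP+ MHCIIhi pools, 0.535 ± 0.0665 in the RFP- MHCIIlo pools and 0.616 ± 0.0887 in the RFP+ MHCIIlo pools. Ptprc to Rag1 was lowest in RFP- MHCIIhi, at 0.444 ± 0.0278 in the RFP- MHCIIhi pools, 1.32 ± 0.217 in the RFP+ MHCIIhi pools, 2.71 ± 1.57 in the RFP- MHCIIlo pools and 2.85 ± 1.49 in the RFP+ MHCIIlo pools. The ratio of Psmb11 to Rag1 was not fixed within RFP- MHCIIhi, at 2.25, 1.45, 1.07 and 1.25 in libraries 1 to 4. For cell cycle genes, Cdk1 to Top2a was 0.190 ± 0.0187 in the RFP- MHCIIhi pools, 0.239 ± 0.0207 in the RFP+ MHCIIhi pools, 0.170 ± 0.0164 in the RFP- MHCIIlo pools and 0.196 ± 0.0582 in the RFP+ MHCIIlo pools, and Mcm5 to Top2a was 0.0788 ± 0.00545 in the RFP- MHCIIhi pools, 0.152 ± 0.00923 in the RFP+ MHCIIhi pools, 0.253 ± 0.0634 in the RFP- MHCIIlo pools and 0.173 ± 0.0476 in the RFP+ MHCIIlo pools, with RFP- MHCIIhi the lowest of the 4.

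**Figure D3:**
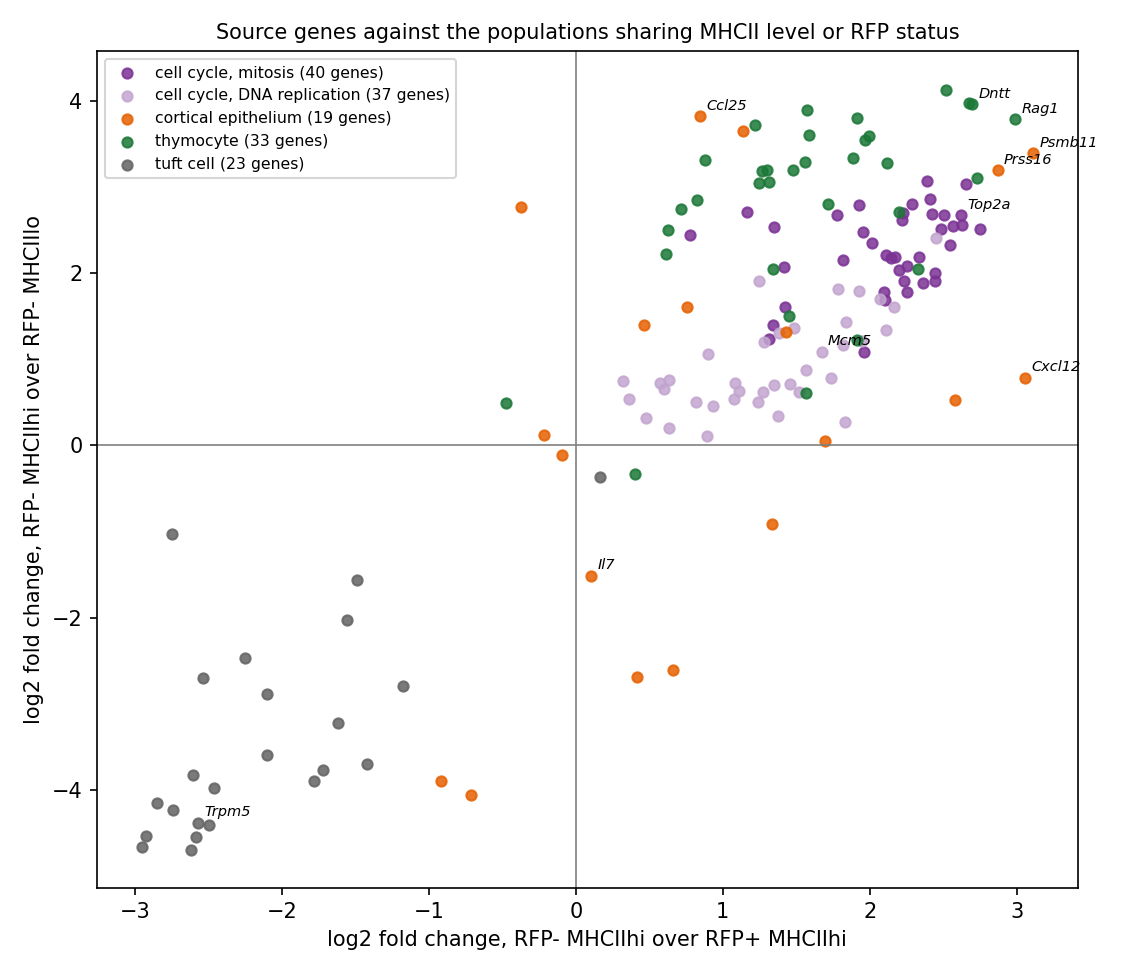
Each point is a tested gene of 5 lists, by its log2 fold change in RFP- MHCIIhi over RFP+ MHCIIhi (x axis) and over RFP- MHCIIlo (y axis). Mitosis genes lie near the diagonal, Rag1 and Dntt lie above it at the right edge beside Psmb11 and Prss16, Ccl25 lies high and left, Cxcl12 low and right, and tuft cell genes lie at the lower left.

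Pools of one population carried these genes in different amounts. Among genes at 5 CPM or more in RFP- MHCIIhi, the median coefficient of variation over the 4 libraries was 7.62% for 40 mitosis genes, 8.95% for 36 replication genes, 17.5% for 17 cTEC genes and 34.2% for 30 thymocyte genes, beside 7.89% for 12147 tested genes. All 30 thymocyte genes were highest in replicate 4 and 28 were lowest in replicate 1. Of the 17 cTEC genes 14 were highest in replicate 4, and 12 were lowest in replicate 2. Mitosis genes were highest in replicate 4 in 16 of 40 and lowest in replicate 1 in 28. Of the 12147 tested genes, 3722 were highest in replicate 4, 2757 lowest in replicate 1 and 2806 lowest in replicate 2. The summed CPM of the thymocyte list was 955.8, 1076, 1397 and 1954 in RFP- MHCIIhi libraries 1 to 4, against 427, 419.7, 425 and 571 in RFP+ MHCIIhi libraries 1 to 4. The summed CPM of the mitosis list was 2337, 2565, 2516 and 2528 in RFP- MHCIIhi, against 514, 534, 554 and 594 in RFP+ MHCIIhi. The order of the lists by spread was not the same in every population. The median coefficient of variation of thymocyte genes and of mitosis genes was 22.3% and 10.9% in RFP+ MHCIIhi, 28.8% and 34.8% in RFP- MHCIIlo, and 45.3% and 31.0% in RFP+ MHCIIlo, each over the members at 5 CPM or more there.

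**Figure D4:**
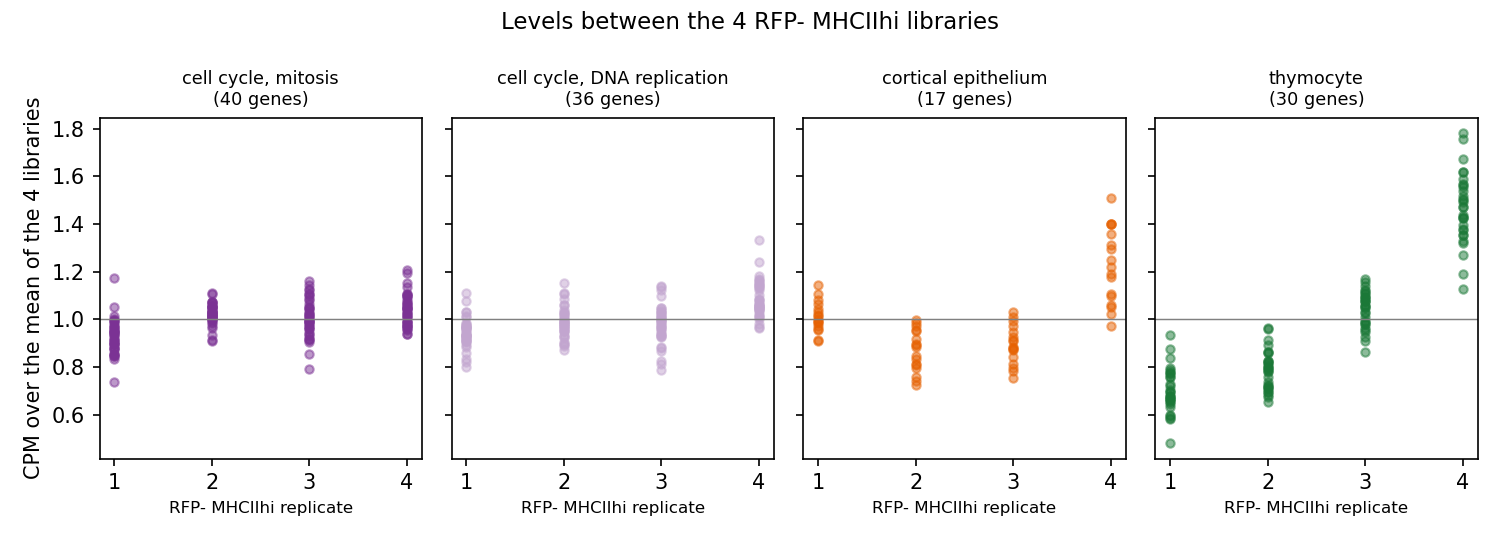
CPM of each gene over its mean of the 4 RFP- MHCIIhi libraries (y axis) by replicate (x axis), for 4 lists; each point is a gene. Thymocyte genes spread with replicate 4 at the top, with a median of 1.47, and replicate 1 at the bottom, with a median of 0.69, while mitosis genes stay near 1.

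Deviations from the population means were correlated both within and between lists. Over the 16 libraries the mean pairwise Pearson correlation of log2 CPM deviations was 0.60 within the mitosis list, 0.56 within the thymocyte list, 0.32 within the replication list and 0.30 within the cTEC list, beside 0.00 over all pairs of tested genes. Between lists it was 0.37 for mitosis with thymocyte genes, 0.29 for cTEC with thymocyte genes and 0.27 for mitosis with cTEC genes. It reached 0.64 for mitosis with MHC class II genes, 0.43 for replication with MHC class II genes and 0.42 for replication with mitosis genes, and was -0.48 for mitosis with tuft cell genes. Over all 16 libraries, mitosis genes thus correlated with MHC class II genes about as much as with each other, and cTEC genes with thymocyte genes likewise. Without the RFP+ MHCIIlo libraries the cTEC values were 0.40 within the list and 0.28 with thymocyte genes. These values need not hold in each population. Replicate 1 was lowest for 23 of 28 mitosis and 10 of 10 MHC class II genes in RFP- MHCIIlo. In RFP- MHCIIhi it was lowest for 28 of 40 mitosis genes but 2 of 10 MHC class II genes. Over all tested genes at 5 CPM or more, replicate 1 was lowest for 3348 of 11704 in RFP- MHCIIlo and for 2757 of 12147 in RFP- MHCIIhi. All genes of a library share its depth and its pool, so these values describe the libraries and carry no p. The part of thymocyte RNA in any single gene's difference was not tested.

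Of 18 tested genes of mature mTEC 12 were higher than the mean of the other 3, beside 34.8% of all tested genes. Ciita and Traf6, 2 of 18, peaked, a share near the 11.5% of all tested genes. Against RFP+ MHCIIhi 2 were higher and 7 lower, with a median of -0.05. Fezf2, a second regulator of tissue-restricted genes, stood at 1.08 ± 0.08 over the mean, Cd80, a costimulatory ligand gene, at 1.21 ± 0.08 and Cd40, a receptor gene, at 2.41 ± 0.16. Cd80 was lower than in RFP+ MHCIIhi, with a log2 fold change of -0.62 ± 0.09. In the MHC class II list the invariant chain gene Cd74 stood at 1.02 ± 0.12 over the mean, and Ciita, the class II transactivator gene, was the member that peaked. Of 16 chemokine genes 5 were higher and 8 lower than in RFP+ MHCIIhi, beside 21.2% and 23.8% of all tested genes. Ccl22 averaged 199 ± 15.8 CPM in the RFP- MHCIIhi pools, against 1006 ± 74.1 in the RFP+ MHCIIhi pools, 19.8 ± 9.99 in the RFP- MHCIIlo pools and 73.8 ± 12.0 in the RFP+ MHCIIlo pools, and Ccl17 and Ccl5 were -1.12 and -1.90 against RFP+ MHCIIhi, whereas Cxcl10, Cxcl11, Cxcl13, Ccl25 and Cxcl12 peaked in RFP- MHCIIhi.

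Of 15 Aire-dependent antigen genes 11 were higher than the mean of the other 3, 2 lower and 4 peaked, Fgg, Pcp4, S100a8 and Cyp1a2. Over all tested genes 34.8% were higher, 32.8% lower and 11.5% peaked. The fibrinogen chain gene Fgg had 32.1, 32.6, 37.1 and 30.5 CPM in the RFP- MHCIIhi pools, against 24.6, 19.2, 24.5 and 28.5 in the RFP+ MHCIIhi pools. Fgg had 1.17, 0.509, 1.02 and 1.20 CPM in the RFP- MHCIIlo pools and 0.108, 0.122, 0.415 and 0.663 in the RFP+ MHCIIlo pools. Its log2 fold change over RFP+ MHCIIhi was 0.45 ± 0.14 with an adjusted p of 0.0121, and without RFP+ MHCIIhi replicate 2 it was 0.35 with an adjusted p of 0.0631. The insulin gene Ins2 averaged 5.78 ± 1.32 CPM in the RFP- MHCIIhi pools, against 13.1 ± 1.07 in the RFP+ MHCIIhi pools, 0.203 ± 0.226 in the RFP- MHCIIlo pools and 1.88 ± 0.465 in the RFP+ MHCIIlo pools, highest in RFP+ MHCIIhi. The trefoil factor gene Tff3 averaged 24.3 ± 2.71 CPM in the RFP- MHCIIhi pools, against 52.6 ± 2.24 in the RFP+ MHCIIhi pools, 4.15 ± 2.08 in the RFP- MHCIIlo pools and 66.7 ± 20.6 in the RFP+ MHCIIlo pools and was not called over the mean of the other 3. With RFP+ MHCIIlo left out its log2 fold change was 0.71 with an adjusted p of 0.000164.

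The genes lowest in RFP- MHCIIhi were led by the tuft cell program. Tuft cells are chemosensory epithelial cells that use taste-type signalling. All 23 tuft list genes were lower than the mean of the other 3, beside 32.8% of all tested genes, and 21 were lowest, beside 12.4%, with medians of -2.46 over RFP+ MHCIIhi, -3.76 over RFP- MHCIIlo and -4.64 over RFP+ MHCIIlo. Trpm5 (ENSMUSG00000009246, chr7:143069153-143094642, minus strand), the cation channel of taste signalling, had 17.0, 12.7, 13.2 and 14.2 CPM in the RFP- MHCIIhi pools, against 100.2, 86.4, 75.6 and 78.9 in the RFP+ MHCIIhi pools. Trpm5 had 394, 309.8, 259 and 231 CPM in the RFP- MHCIIlo pools and 645, 520.5, 599 and 494 in the RFP+ MHCIIlo pools. The 4 populations did not overlap: RFP- MHCIIhi was lowest, then RFP+ MHCIIhi, then RFP- MHCIIlo, and RFP+ MHCIIlo was highest. Its log2 fold change was -2.57 ± 0.15 over RFP+ MHCIIhi and -5.30 ± 0.16 over RFP+ MHCIIlo. Gnat3, the gustducin gene, had 8.86, 6.07, 5.83 and 7.24 CPM in the RFP- MHCIIhi pools, against 69.8, 52.0, 48.0 and 50.7 in the RFP+ MHCIIhi pools. Gnat3 had 249, 189, 154 and 123 CPM in the RFP- MHCIIlo pools and 551, 394, 379 and 403 in the RFP+ MHCIIlo pools. It kept the same order, again with no overlap.

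Pou2f3, the transcription factor gene that tuft cells require, averaged 15.0 ± 1.5 CPM in the RFP- MHCIIhi pools, against 71.8 ± 8.31 in the RFP+ MHCIIhi pools, 83.7 ± 15.3 in the RFP- MHCIIlo pools and 214 ± 36.8 in the RFP+ MHCIIlo pools (SD, n = 4 each). Dclk1, a kinase gene used as a tuft marker, stood at -3.18 ± 0.15 over the mean of the other 3, Alox5, the leukotriene synthesis enzyme gene, at -4.06 ± 0.14 and Plcb2, the phospholipase gene of taste signalling, at -3.90 ± 0.15. The tyrosine kinase gene Bmx and the adaptor gene Sh2d6 stood at -4.12 and -4.38. Spib and Sucnr1 were the 2 list members not lowest. Spib, a transcription factor gene that several mTEC types express, was 0.17 over RFP+ MHCIIhi, and Sucnr1, a succinate receptor gene, was below 1 CPM in RFP- MHCIIhi and RFP- MHCIIlo. Of the 12 lowest genes, those outside the tuft list were Car8, Cyp2f2, Gnb3, Mctp1, Sh2d7 and Slitrk6, at -3.67, -3.40, -3.88, -3.88, -4.26 and -3.91 over the mean of the other 3. Gnb3 is a G protein subunit gene of taste and photoreceptor signalling, and Cyp2f2 a cytochrome P450 gene of airway club cells, with 12.6, 9.81, 10.1 and 9.82 CPM in RFP- MHCIIhi.

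**Figure D5:**
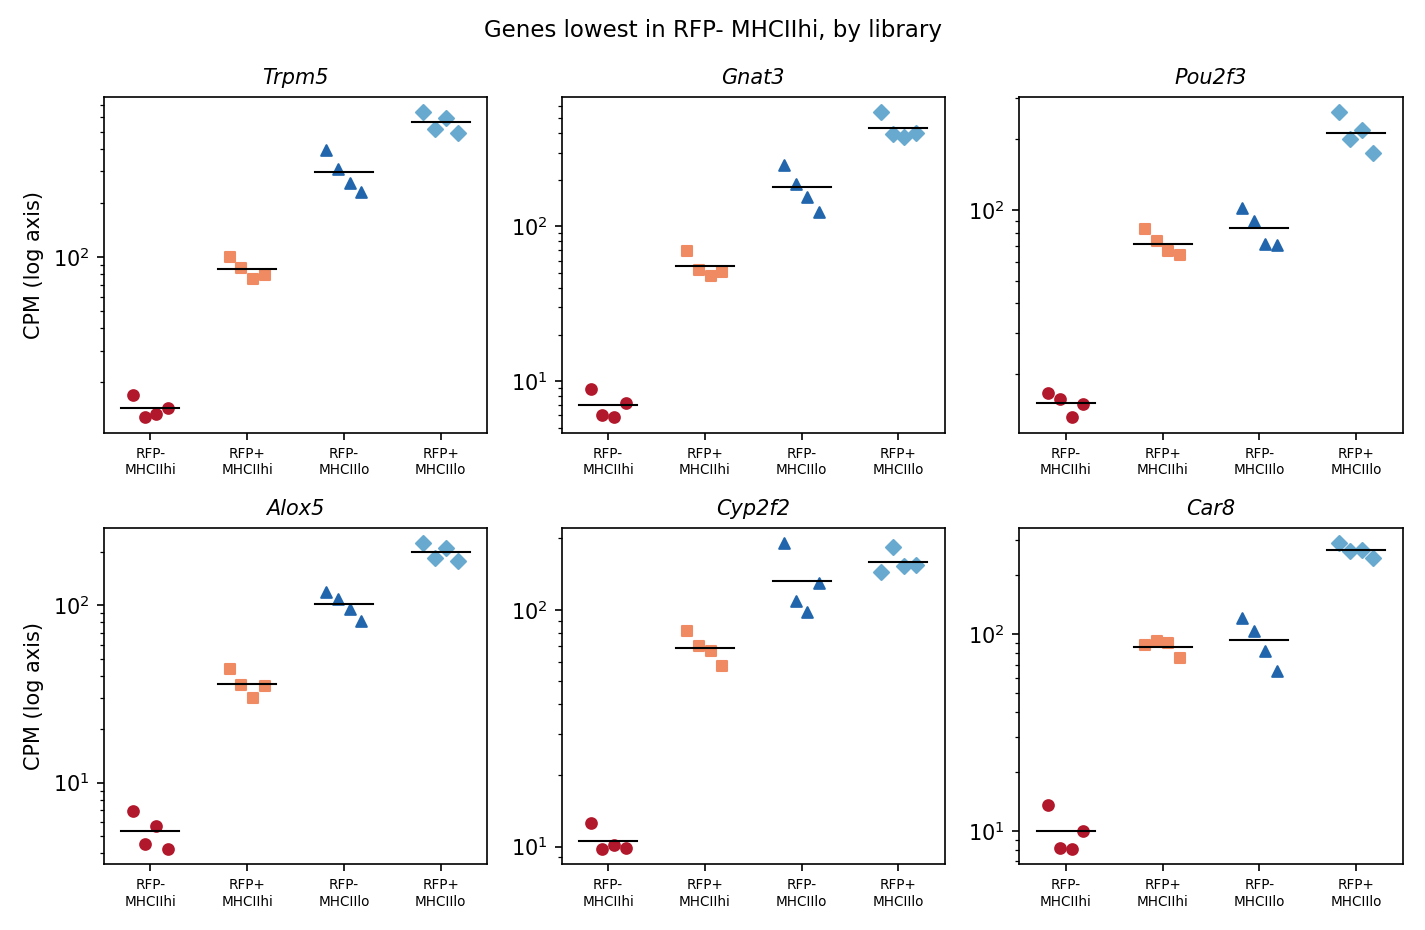
CPM on log axes (y) of 4 tuft list genes, Cyp2f2 and Car8 in each library by population (x), with lines at the means of 4; the axes do not start at 0. RFP- MHCIIhi libraries lie below all 12 others in each panel, between 12.7 and 17.0 CPM for Trpm5.

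The microfold, cornified, enterocyte and hepatocyte, and neuroendocrine lists also held more lower than higher genes, with differing orders of populations. Over all tested genes 32.8% were lower and 12.4% lowest. Of 10 microfold genes 8 were lower and 7 lowest: Gp2, a bacterial receptor gene, stood at -2.85 ± 0.09 over the mean of the other 3 and the chemokine gene Ccl20 at -2.17 ± 0.13. Of 28 cornified epithelium genes 20 were lower and 9 lowest, with medians of -1.45 over RFP+ MHCIIhi, 0.19 over RFP- MHCIIlo and -2.32 over RFP+ MHCIIlo. The keratin gene Krt10 averaged 10.7 ± 1.46 CPM in the RFP- MHCIIhi pools, against 130.2 ± 21.4 in the RFP+ MHCIIhi pools, 26.4 ± 7.59 in the RFP- MHCIIlo pools and 319 ± 84.2 in the RFP+ MHCIIlo pools. Krt1 and Lypd3, which keratinocytes also express, stood at -2.67 ± 0.17 and -3.00 ± 0.11 over the mean of the other 3, and the involucrin gene Ivl at -1.78 ± 0.15, though Ivl did not pass over RFP- MHCIIlo. Of 16 enterocyte and hepatocyte genes 11 were lower and 5 lowest, with Reg3g, an antimicrobial lectin gene, at -1.77 ± 0.10, the transthyretin gene Ttr at -1.05 ± 0.13 and the regulator gene Hnf4a at -0.38 ± 0.13. With RFP+ MHCIIlo left out the Hnf4a value was 0.000461.

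Of 14 neuroendocrine genes 10 were lower and 6 lowest, beside 32.8% and 12.4% of all tested genes. The granule protein gene Chga stood at -1.90 ± 0.19 and the regulator gene Neurod1 at -0.86 ± 0.33 (adjusted p = 0.0231) over the mean of the other 3. The Neurod1 call was lost without RFP- MHCIIhi replicate 1, with an adjusted p of 0.0957, without replicate 2, with 0.0643, without RFP+ MHCIIlo, with 0.0529, and without both MHCIIhi libraries numbered 4, with 0.0627. Of 13 ciliated cell genes 7 were lower and 2 higher, beside 32.8% and 34.8% of all tested genes, and Foxj1, the regulator of motile cilia, stood at -0.88 ± 0.09. Mcidas and Ccno peaked, 2 of 13, a share near the 11.5% of all tested genes. They encode factors that start multiciliated differentiation and averaged 17.2 and 16.5 CPM in RFP- MHCIIhi, against 9.45 and 10.5 CPM in RFP+ MHCIIhi. Of 11 muscle genes 5 were higher and 3 lower, beside 34.8% and 32.8% of all tested genes, with the regulator gene Myog at -1.25 ± 0.17. Of 15 immature or CCL21-type mTEC genes 12 were lower and 7 lowest, beside 32.8% and 12.4% of all tested genes. The median of this list was -1.93 over RFP- MHCIIlo but -0.12 over RFP+ MHCIIlo. Over the mean of the other 3, the keratin gene Krt5 of that list stood at -1.55 ± 0.09 and the basal epithelial regulator gene Trp63 at -0.70 ± 0.07. In the same comparison the podoplanin gene Pdpn stood at -0.49 ± 0.11 and the tight junction gene Cldn3 at -1.56 ± 0.10.

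Interferon response genes were lower in 12 of 16 and lowest in 7, beside 32.8% and 12.4% of all tested genes. Isg15, a ubiquitin-like modifier gene, averaged 13.6 ± 1.06 CPM in the RFP- MHCIIhi pools, against 25.9 ± 2.63 in the RFP+ MHCIIhi pools, 71.9 ± 10.9 in the RFP- MHCIIlo pools and 33.9 ± 3.85 in the RFP+ MHCIIlo pools. Immediate-early and stress genes were lower in 13 of 16, lowest in 11 and higher in none, beside 32.8%, 12.4% and 34.8% of all tested genes. The AP-1 subunit gene Fos had 80.3, 75.8, 78.9 and 77.4 CPM in the RFP- MHCIIhi pools, against 116, 123, 139 and 150.1 in the RFP+ MHCIIhi pools. Fos had 275, 268, 312 and 359 CPM in the RFP- MHCIIlo pools and 245, 279.6, 267 and 314 in the RFP+ MHCIIlo pools. The 4 RFP- MHCIIhi libraries lay below all others. The heat shock gene Hspa1a was not called, at -0.03 ± 0.09. Of 7 tested mitochondrially encoded genes 5 were lower, and mt-Co1, a cytochrome oxidase subunit gene, stood at -0.34 ± 0.15 with an adjusted p of 0.0571, not called; it was called without RFP- MHCIIlo replicate 4 (0.0208), RFP+ MHCIIlo replicate 1 (0.0384), 2 (0.0431) or 3 (0.0374), without all RFP+ MHCIIlo libraries (0.00489), with no filter (0.0002) and with limma-voom (0.0485). Mitochondrial ribosomal RNA took 34.1% ± 1.86 of counted reads in RFP- MHCIIhi, 31.3% ± 1.43 in RFP+ MHCIIhi, 42.7% ± 3.05 in RFP- MHCIIlo and 33.9% ± 3.18 in RFP+ MHCIIlo (SD, n = 4 each). The part of this share in the mitochondrial values was not tested.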

How the data were processed

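The authors deposited a table of unnormalised gene counts per library (43432 Ensembl identifiers), made with STAR on GRCm38, per the submitters' processing notes, which also name DESeq2. How reads were assigned to genes (tool, release, strand) was not given in the sources, so overlapping and antisense genes cannot be told apart, and members of similar families (globins, receptor segments, kallikreins) can share reads. Per the labels, poly(A) RNA came from sorted pools of 12 thymi, and p-values rest on differences among pools. Symbols and coordinates are from GENCODE M21 (GRCm38), which matched 42548 identifiers, and promoters from RefSeq (GRCm38.p6).

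Counts were analysed with edgeR 4.0.16 in R 4.3.3: filterByExpr (minimum count 10, minimum total 15) left 19617 genes, and 1 TMM-scaled quasi-likelihood fit held all 16 libraries with a mean per population. Same-population pairs (24) differed beyond sampling noise, with chi-square over its degrees of freedom of 3.18 to 36.78. On simulated counts with 50 genes changed per size (18866 genes), 82% of 1.5-fold and 100% of 2-fold changes were called, and 56% and 94% met the peaking or lowest rule; 7 unchanged genes were called. The 200 changed genes all had more than 50 expected reads and went up and down in equal numbers. In the data 67.6% of tested genes were called. These rates therefore do not cover genes of lower counts or so wide a change. Precision is limited by depth for genes of a few CPM.

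Named genes were the marker genes of 27 lists and the 12 highest and 12 lowest genes by the rule given in the text; other examples were picked after their values were seen. The members and lists were chosen with earlier results of these data known. Alternatives were RLE scaling, no filter, DESeq2 1.42.0, limma-voom (limma 3.58.1), a replicate block, each library left out, RFP+ MHCIIlo left out, a log2 difference beyond 1, list sums without mitochondrial ribosomal RNA or TMM, and 3 added after the data were seen: RFP+ MHCIIlo libraries 1 and 4 left out together, both MHCIIhi libraries numbered 4 left out together, and RFP+ MHCIIlo left out of the correlations. Among the list genes, Fen1, Cfc1, Mt3, Hba-a2, Mup1, Rbp3, Ccl21a, Tnnc2 and 6 mitochondrial genes did not pass the filter, and Dnai1 and Dnai2 were not matched. Some list genes are not reported here by name.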

Additional observations from a re-analysis of the deposited data

Results flagged for a closer look

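Within groups of 4 libraries, 20 of 392 values checked (5.1%) had a library set apart from the other 3, with a gap over the range above Dixon's 95% critical value; chance gives about 1 in 20. RFP+ MHCIIhi replicate 4 stood high for 7 of them: Psmb11 at 39.8 CPM, Cxcl12 at 32.3 CPM, Cd8a at 15.7 CPM, Cd8b1 at 8.84 CPM, Dntt at 20.0 CPM, Ube2c at 13.4 CPM, and the summed thymocyte list at 571 CPM. The same pool number held the highest thymocyte sum of RFP- MHCIIhi. RFP+ MHCIIhi replicate 1 stood low for Top2a at 50.3 CPM and Srm at 12.4 CPM and high for Krt5 at 311 CPM and Lypd3 at 40.4 CPM.

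In RFP- MHCIIhi itself, replicate 1 stood high for Sh2d6 at 9.19 CPM and Cyp2f2 at 12.6 CPM. In RFP- MHCIIlo, replicate 2 stood low for C1qa at 0.424 CPM and replicate 1 low for Ccl20 at 169 CPM. In RFP+ MHCIIlo, replicate 1 stood high for Gnat3 at 551 CPM and Gnb3 at 332 CPM, replicate 3 high for Ptprc at 45.3 CPM and Chga at 75.1 CPM, and replicate 4 high for mt-Co1 at 6637 CPM.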

How the results depend on the processing

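Leaving out each library in turn gave 6510 to 7226 higher and 5801 to 6632 lower genes, 1966 to 2607 peaking and 2172 to 2571 lowest genes, 27 to 32 replication, 40 mitosis, 8 to 9 cTEC and 25 to 29 thymocyte genes peaking, and 21 to 22 tuft genes lowest. With a log2 difference beyond 1 in each comparison, 675 genes peaked and 684 were lowest. With library totals free of mitochondrial ribosomal RNA and no TMM, the summed CPM over the mean of the other 3 was 2.45 for replication and 6.06 for mitosis genes. Same-numbered libraries of different populations correlated at -0.0191 to 0.129, with a median of 0.057 and 4 of 24 pairs over 0.1. Differently numbered ones correlated at -0.121 to 0.079, with a median of -0.017 and 0 of 72 pairs over 0.1. Of 16 libraries, 14 correlated best with their own number, so libraries of 1 number shared some deviation. The main fit did not take the numbers as pairs, and the replicate block is the alternative that does. With the replicate block, the correlation was 0.06627 for mitosis with thymocyte, 0.1215 for mitosis with cTEC and 0.1969 for cTEC with thymocyte genes, and within lists it was 0.1499 for replication, 0.4293 for mitosis and 0.1919 for cTEC genes, and without the RFP+ MHCIIlo libraries it was 0.4709 for replication, 0.7119 for mitosis and 0.6706 for thymocyte genes; the cause was not tested. The block also brought the differences of Aire (0.75, adjusted p = 0.0202) and Dll4 (-0.37, adjusted p = 0.0393) from RFP+ MHCIIhi past the threshold. Changes of sign were as follows. Tff3 (-0.01 over the mean of the other 3) was 0.0353 with RLE scaling, 0.000370 with no filter, 0.0402 with DESeq2, 0.0441 with limma-voom, 0.00791 with the replicate block, 0.707 without RFP+ MHCIIlo (adjusted p = 0.000164) and 0.0495 without the 2 MHCIIhi libraries numbered 4, and -0.104 to 0.104 over single libraries left out. Hspa1a (-0.03) was 0.0176 with RLE scaling, 0.0175 with DESeq2, 0.0545 without the 2 MHCIIhi libraries numbered 4, and -0.0694 to 0.0303 over single libraries. Prelp was -0.0282 to 0.177 over single libraries and -0.000759 without RFP+ MHCIIlo libraries 1 and 4. Without RFP+ MHCIIlo, Ccnd1 was -0.0389, Hbb-bs -0.0245, Cdh5 -0.119, Prelp -0.875 (adjusted p = 7.73e-07), Hnf4a 0.000461 and the endothelial median -0.210; the cause was not tested. Depth limits genes of a few CPM, such as Ptcra and Rag2, most in RFP+ MHCIIlo.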

Other observations

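Of the 675 genes that peaked by more than 1 on the log2 scale in each comparison, 596 were protein-coding and 85 stood in any of the 27 lists. For 279 of them RFP+ MHCIIhi came second and was at least 2-fold above both MHCIIlo populations. Several encode proteins of distant tissues and were picked after their values were seen. Rln3, a relaxin family peptide gene, had 56.6, 45.0, 50.3 and 56.9 CPM in the RFP- MHCIIhi pools, against 21.4, 23.9, 25.4 and 27.1 in the RFP+ MHCIIhi pools. Rln3 had 0.0, 0.0, 0.0853 and 0.946 CPM in the RFP- MHCIIlo pools and 0.324, 1.34, 1.87 and 1.24 in the RFP+ MHCIIlo pools. The embryonic globin gene Hba-x averaged 53.2 ± 3.37 CPM in the RFP- MHCIIhi pools, against 25.7 ± 3.81 in the RFP+ MHCIIhi pools, 0.503 ± 0.376 in the RFP- MHCIIlo pools and 0.997 ± 0.642 in the RFP+ MHCIIlo pools, and Madcam1, a vascular addressin gene, averaged 40.6 ± 0.874 CPM in the RFP- MHCIIhi pools, against 16.6 ± 2.59 in the RFP+ MHCIIhi pools, 0.497 ± 0.386 in the RFP- MHCIIlo pools and 0.776 ± 0.555 in the RFP+ MHCIIlo pools (SD, n = 4 each). Cga, the glycoprotein hormone alpha chain gene, and Pdyn, a neuropeptide precursor gene, stood 1.08 ± 0.20 and 1.26 ± 0.22 above RFP+ MHCIIhi. The libraries of RFP- MHCIIhi varied little in Hba-x, with 52.0, 58.2, 51.8 and 50.8 CPM.

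Genes outside the thymocyte list that thymocytes also express were also picked after their values were seen. Satb1, a chromatin organiser gene, had 123, 130.1, 180.5 and 243 CPM in RFP- MHCIIhi libraries 1 to 4, and Rhoh, a blood cell GTPase gene, had 10.2, 11, 13.6 and 22.6 CPM. Cxcr4, the receptor gene for CXCL12, had 11.5, 12.9, 15.4 and 19.9 CPM. In each of them library 4 was the highest.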
